A study of Mus musculus with 22 samples.

Results

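This report describes 9 genes that are usually read as marks of mesothelium or of epithelium, *Msln*, *Upk3b*, *Wt1*, *Krt7*, *Krt8*, *Krt18*, *Krt19*, *Cdh1* and *Epcam*, in RNA-seq libraries of mouse embryonic fibroblasts (MEFs). The members were listed by name and found as 9 of the 55401 gene identifiers in the count table, and they were chosen by their symbols with their levels in these libraries already seen. The CPM levels that chose them, and differences of those levels, are therefore given as a description. Where the same fits called members, the calls are printed beside the share over all genes and nothing is read from them. The 22 libraries formed 2 sets, each made of 3 groups. In the S6K1 set, 4 early WT and 4 late WT libraries were set beside 3 late libraries of S6K1 KO MEFs. In the S6K1/S6K2 set, 4 early WT and 4 late WT libraries were set beside 3 late libraries of S6K1/S6K2 double knockout (DKO) MEFs. Early stands for passage 3 and late for passage 8, there was no early library of either knockout, and S6K1 and S6K2 are the kinases encoded by *Rps6kb1* and *Rps6kb2*. Per the study's methods, MEFs came from embryos of day 13.5 freed of head and viscera and were passaged serially in 21% oxygen. Per the same methods, S6K1 KO embryos had WT littermates, whereas DKO embryos came from S6K2-null crosses and their WT controls from other mothers, so in the S6K1/S6K2 set the genotype and the litter cannot be told apart. A figure legend of the study describes replicates of its serially passaged MEFs as taken from different embryos, without naming the sequenced libraries. The sources used here do not say which of these libraries, within or between groups, shared an embryo or a culture. The p-values below therefore measure the spread between these libraries, which may be partly technical.

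The mesothelium is a single sheet of cells that lines the body cavities and wraps the organs in them. It arises from mesoderm, yet it makes keratin filaments and cell junctions as an epithelium does, while it also contains vimentin, the filament protein of fibroblasts. *Msln* encodes mesothelin, a surface glycoprotein of mesothelial cells, *Upk3b* encodes a uroplakin of the mesothelial surface, and *Wt1* encodes a zinc-finger transcription factor of the mesothelium, the kidney and the gonad. Keratins work as pairs of a type II and a type I chain. *Krt7* and *Krt8* encode type II chains and *Krt18* and *Krt19* type I chains of simple, single-layered epithelia. *Cdh1* encodes E-cadherin, the adhesion molecule of epithelial junctions, and *Epcam* an adhesion molecule of most simple epithelia, and these are the members that separate epithelium from mesothelium best.

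In the mm10 build (GRCm38.p6, RefSeq), *Msln* lies at chr17:25748613-25754378 on the minus strand and *Epcam* at chr17:87635979-87651127 on the plus strand. *Upk3b* lies at chr5:136038496-136044993 and *Wt1* at chr2:105126529-105173614, both on the plus strand, as is *Cdh1* at chr8:106603350-106670247. The type II keratin genes *Krt7* (chr15:101412403-101427806, plus strand) and *Krt8* (chr15:101996711-102004342, minus strand) share a chromosome with *Krt18* (chr15:102028216-102032026, plus strand). *Krt8* and *Krt18*, which encode the chains of 1 keratin pair, face each other head to head, and 23874 bases part their starts. *Krt19* lies at chr11:100140810-100145926 on the minus strand, on the chromosome that also carries *Rps6kb1*. Each value is a count over a whole gene, so nothing below tells exons or isoforms apart. *Krt8* and *Krt18* have near-identical processed copies elsewhere in the genome, the sources used here do not say how reads shared with them were counted, and the levels of both are uncertain to that extent.

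Of the 9 members, 5 were matched in the RefSeq promoter table. The 250 bases upstream of the start are shown for the 4 of these whose levels the comparisons below turn on, because 3 keratin genes on 1 chromosome and *Upk3b* had lower means at late passage in both sets. Each runs 5′ to 3′ along the strand of its gene and ends at position -1, the base before the start. Capitals mark matches, on either strand, to 7 short motifs that were searched.
Upk3b (chr5:136038246-136038495, plus strand): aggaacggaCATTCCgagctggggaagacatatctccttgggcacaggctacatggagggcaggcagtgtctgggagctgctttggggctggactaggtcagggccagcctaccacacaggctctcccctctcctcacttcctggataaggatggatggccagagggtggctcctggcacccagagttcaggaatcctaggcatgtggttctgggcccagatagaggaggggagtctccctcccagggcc
Krt7 (chr15:101412153-101412402, plus strand): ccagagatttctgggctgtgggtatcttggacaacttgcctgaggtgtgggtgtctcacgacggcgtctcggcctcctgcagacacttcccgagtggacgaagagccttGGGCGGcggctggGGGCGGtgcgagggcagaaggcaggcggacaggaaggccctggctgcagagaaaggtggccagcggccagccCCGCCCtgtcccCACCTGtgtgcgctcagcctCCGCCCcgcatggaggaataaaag
Krt8 (chr15:102004343-102004592, minus strand): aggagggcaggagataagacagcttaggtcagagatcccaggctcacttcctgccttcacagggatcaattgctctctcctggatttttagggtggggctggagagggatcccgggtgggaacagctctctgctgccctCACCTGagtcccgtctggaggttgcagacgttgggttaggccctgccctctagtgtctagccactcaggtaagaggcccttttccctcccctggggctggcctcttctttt
Krt18 (chr15:102027966-102028215, plus strand): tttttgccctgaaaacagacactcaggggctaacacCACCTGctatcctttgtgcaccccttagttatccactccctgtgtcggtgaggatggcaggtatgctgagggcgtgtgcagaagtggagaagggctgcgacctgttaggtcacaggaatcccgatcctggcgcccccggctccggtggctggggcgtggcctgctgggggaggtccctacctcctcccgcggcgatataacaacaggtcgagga
The motif CACCTG, an E-box of the kind that ZEB and SNAI repressors bind, was found once in each of the 3 keratin promoters, with its first base at -44 in *Krt7*, -111 in *Krt8* and -214 in *Krt18*. It was found at -187 and -19 in *Epcam* and not in *Upk3b*, and 17.2% of the 32851 promoters in the table hold it. GGGCGG, the GC box, was found 4 times in *Krt7* and once in *Epcam*, against 32.7% of all promoters. GGAATG, the core that TEAD factors bind, was found in *Upk3b* alone of these 5, at -241, against 12.6% of all promoters. TATAAA (12.4% of promoters), CCAAT (33.8%), the AP-1 motif TGANTCA (6.75%) and the WT1 or EGR motif GCGTGGGNG (1.65%) were in none of the 5, and no match overlapped another. The GC content was 56.4% for *Epcam*, 58.0% for *Krt8*, 60.4% for *Krt18*, 60.8% for *Upk3b* and 66.0% for *Krt7*, beside a median of 52.4% over all promoters. These matches describe the letters of the windows and do not show that a factor was bound.

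The libraries held 10742454 to 17314832 counts each, and 3 counts were worth 0.173 to 0.279 CPM. CPM is the count scaled to one fixed library total, here with library sizes adjusted by the trimmed mean of M-values (TMM). *Rps6kb1* averaged 63.5 CPM in S6K1 late WT and 14.2 to 23.0 CPM in the S6K1 KO libraries, and *Rps6kb2* averaged 13.2 CPM in S6K1/S6K2 late WT and 0.811 CPM in DKO libraries. The fibroblast label went with high *Col1a1*, at 561 to 1510 CPM per kb of exons in the group means. *Vim*, which mesothelium also contains, was at 2530 to 3410. Macrophage markers were present as well. The 15 of them summed to 455 to 1030 CPM in S6K1 early WT libraries, 4970 to 10400 in S6K1 late WT, 3320 to 4550 in S6K1 KO, 554 to 1820 in S6K1/S6K2 early WT, 6730 to 11600 in S6K1/S6K2 late WT and 795 to 3070 in DKO. Y-linked genes had at least 3149 counts in 2 of 4, 1 of 4, 3 of 3, 2 of 4, 3 of 4 and 1 of 3 libraries of these groups in the same order, and at most 10 counts in each other library.

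The members together made up a small part of the transcript pool. Their summed CPM had a median of 81.2 in S6K1 early WT, 23.3 in S6K1 late WT and 25.0 in S6K1 KO libraries. It had a median of 115 in S6K1/S6K2 early WT, 23.8 in S6K1/S6K2 late WT and 16.4 in DKO libraries. The lowest early library stood at 57.7 CPM and the highest late library at 43.8 CPM, so early and late did not overlap. *Msln*, *Krt18* and *Krt19* gave 60.5% to 94.7% of this sum in each library. Per kb of exons, *Krt19* had the highest mean level of the 9 members in S6K1 early WT libraries (23.0 CPM per kb), followed by *Krt18* (11.6) and *Msln* (6.33). In S6K1/S6K2 early WT libraries *Msln* (19.4) and *Krt19* (18.6) were at the top, and *Krt18* stood at 13.4 CPM per kb. All members stayed far under *Vim* per kb in every group. *Krt8* was at 0 counts in 9 of the 22 libraries, *Cdh1* and *Epcam* at 0 in 5 each and *Wt1* in 1.

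**Figure D1:**
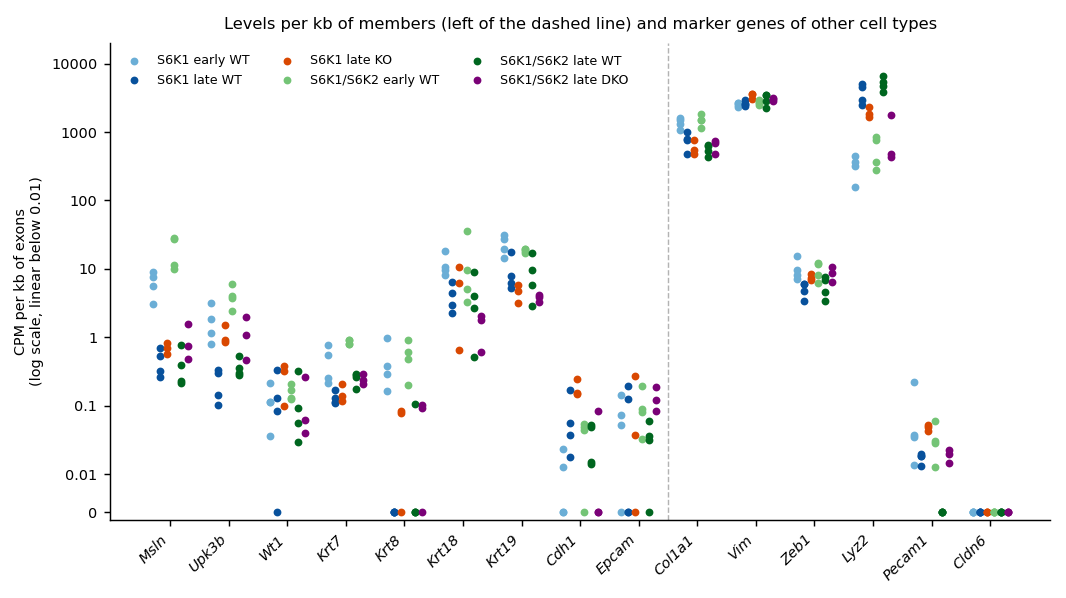
Level of each member (left of the dashed line) and of marker genes of other cell types (right) in CPM per kb of exons, on a log axis that is linear near 0. Each point is 1 of the 22 libraries, coloured by group. *Krt19*, *Krt18* and *Msln* lead the members in early WT libraries and lie far under *Col1a1* and *Vim*, while *Zeb1* is read at a like level and *Lyz2*, a macrophage gene, far above.

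*Msln* was far lower at late than at early passage in both sets. In the S6K1 set it stood at 18.9, 6.5, 11.9 and 16.3 CPM in the 4 early WT libraries and at 1.49, 0.559, 1.13 and 0.679 CPM in the 4 late WT libraries. The groups did not overlap, and late WT was 13.7-fold lower (log2 fold change −3.77, SE 0.40). WT libraries of the S6K1/S6K2 set held 58.4, 60.6, 24.3 and 20.9 CPM early and 0.483, 0.829, 1.62 and 0.447 CPM late. Here the difference was 48.4-fold (log2 fold change −5.60, SE 0.56). The early WT libraries fell into a pair at 58.4 and 60.6 CPM and a pair at 20.9 and 24.3 CPM, and even the lower pair lay above all 4 S6K1 early WT libraries. S6K1 KO libraries held 1.75, 1.47 and 1.21 CPM and DKO libraries 1.01, 1.55 and 3.28 CPM, each overlapping its late WT group. Over both sets, all 8 early libraries (lowest 6.5 CPM) stood above all 14 late libraries (highest 3.28 CPM).

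*Upk3b* was also lower at late passage in both sets. In the S6K1 set it was at 4.34, 1.87, 7.51 and 2.73 CPM early and 0.706, 0.24, 0.79 and 0.34 CPM late in WT libraries, 7.7-fold lower (log2 fold change −2.94, SE 0.52). The S6K1/S6K2 set had it at 9.56, 5.69, 14.1 and 8.8 CPM early and 0.664, 0.829, 1.25 and 0.703 CPM late, 10.8-fold lower (log2 fold change −3.44, SE 0.44). Neither pair of groups overlapped. *Upk3b* was also higher on average in knockout than in late WT libraries. S6K1 KO libraries held 3.58, 1.97 and 2.12 CPM, all above the 4 late WT libraries and within the early WT range, with a log2 difference of 2.24 (SE 0.54) from late WT. DKO libraries held 1.1, 2.52 and 4.7 CPM, and the lowest of them lay under the highest late WT library, with a log2 difference of 1.69 (SE 0.47). *Msln*, which marks the same cells, stood 0.60 (SE 0.43) and 1.26 (SE 0.63) higher on the log2 scale in S6K1 KO and DKO than in late WT. Without DKO replicate 3 the DKO differences were 1.05 for *Upk3b* and 0.60 for *Msln*.

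*Wt1* did not share this order. It was at 0.697, 0.224, 1.34 and 0.704 CPM in S6K1 early WT, 2.04, 0, 0.79 and 0.509 in S6K1 late WT, and 1.96, 0.614 and 2.35 in S6K1 KO libraries. It was at 0.773, 1.04, 1.3 and 0.794 CPM in S6K1/S6K2 early WT, 0.181, 0.346, 1.99 and 0.575 in S6K1/S6K2 late WT, and 1.6, 0.387 and 0.247 in DKO libraries. All 6 groups overlapped, with means between 0.741 and 1.64 CPM. The passage differences were 0.15 (SE 0.82) and −0.33 (SE 0.70) on the log2 scale, each smaller than its error. Leaving out 1 late WT library of the S6K1/S6K2 set, replicate 3, moved the latter to −1.38.

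**Figure D2:**
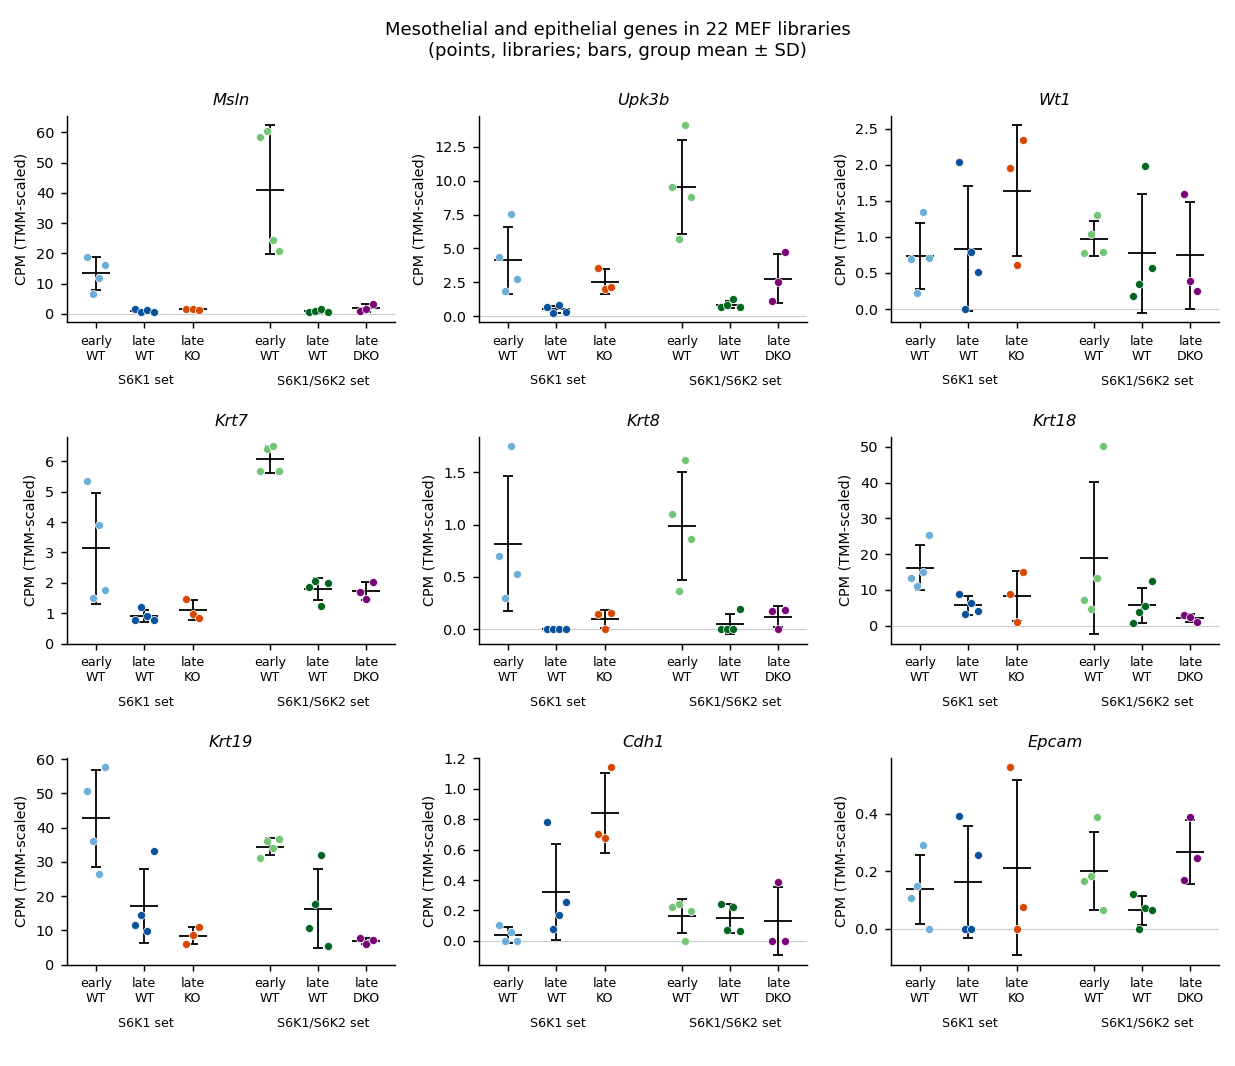
CPM of each member (linear axes that differ between panels) in each of the 22 libraries (points), by group, with horizontal lines at the group means and bars of 1 SD. *Msln*, *Upk3b*, *Krt7* and *Krt8* stand higher in early than in late WT libraries of both sets, while *Wt1* overlaps between all groups and *Epcam* reaches at most 0.561 CPM.

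Among the type II keratins, *Krt7* was lower at late passage in both sets. The S6K1 early WT libraries held 5.36, 1.5, 3.9 and 1.76 CPM and the late WT libraries 0.784, 1.2, 0.903 and 0.764, 3.45-fold lower (log2 fold change −1.78, SE 0.44). The S6K1/S6K2 early WT libraries held 5.69, 6.42, 6.49 and 5.69 CPM and the late WT libraries 1.87, 2.07, 1.25 and 1.98, 3.3-fold lower (log2 fold change −1.72, SE 0.23). Neither pair of groups overlapped, and replicates were close together in S6K1/S6K2 early WT (6.07 ± 0.443 CPM, SD, n = 4). S6K1 KO (1.1 ± 0.335 CPM, SD, n = 3) and DKO (1.73 ± 0.296 CPM, SD, n = 3) both overlapped late WT (0.913 ± 0.2 and 1.79 ± 0.371 CPM, SD, n = 4 each).

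*Krt8* was read at early passage and nearly absent later, so its counts are given. S6K1 early WT libraries had 13, 4, 30 and 6 counts and all 4 late WT libraries had 0. With 3 counts over the group in place of the late total of 0, the early level was 15.9-fold higher. This value covers neither the error of the early counts nor the spread between libraries. S6K1/S6K2 early WT libraries had 20, 6, 25 and 13 counts and late WT libraries 0, 0, 0 and 3, a ratio of 20.5 with an exact 95% interval of 6.71 to 102 that covers counting error only. S6K1 KO libraries had 2, 0 and 2 counts and DKO libraries 2, 0 and 3, so any difference from late WT was not detectable at this depth.

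Of the type I keratins, *Krt18* varied most among replicates. It stood at 13.3, 11.2, 15.1 and 25.2 CPM in S6K1 early WT and 8.94, 3.2, 6.21 and 4.08 in S6K1 late WT libraries, which did not overlap (log2 fold change −1.53, SE 0.59). The S6K1/S6K2 set had it at 7.12, 4.59, 13.4 and 50.2 CPM early and 0.724, 3.8, 5.52 and 12.5 late, which overlapped (log2 fold change −1.70, SE 0.84). Leaving out 1 library at a time moved the latter between −2.47 (without late WT replicate 4) and −0.56 (without early WT replicate 4, at 50.2 CPM). S6K1 KO libraries held 8.84, 0.922 and 14.9 CPM and DKO libraries 2.87, 2.52 and 0.865, overlapping late WT in both sets. *Krt18* was thus read at 3.2 CPM or more in the 4 S6K1 late WT libraries, in which *Krt8*, its type II partner, had 0 counts.

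*Krt19*, the type I keratin that also occurs without a type II partner of its own, was lower late and lower again in knockouts. S6K1 early WT libraries held 50.6, 36.0, 26.5 and 57.7 CPM, late WT 11.5, 14.6, 9.71 and 33.1, and S6K1 KO 5.96, 8.66 and 10.9. S6K1/S6K2 early WT libraries held 31.2, 36.0, 34.1 and 36.7 CPM, late WT 10.6, 17.7, 31.9 and 5.37, and DKO 7.76, 6.1 and 7.23. Early and late WT overlapped in both sets through 1 high late WT library each. The passage differences were −1.32 (SE 0.38) and −1.05 (SE 0.40) on the log2 scale. Knockout libraries overlapped late WT in both sets, with log2 differences of −1.01 (SE 0.42) for S6K1 KO and −1.23 (SE 0.45) for DKO. Without the high late WT library of each set, replicate 4 of the S6K1 set and replicate 3 of the S6K1/S6K2 set, these were −0.49 and −0.68. The spread of DKO libraries was small (7.03 ± 0.85 CPM, SD, n = 3) beside that of late WT (16.4 ± 11.5 CPM, SD, n = 4). *Upk3b* and *Msln* had higher and *Krt19* lower means in both knockouts than in late WT.

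The epithelial adhesion genes were at or near the floor. *Cdh1* had 2, 0, 1 and 0 counts in S6K1 early WT, 10, 1, 3 and 3 in S6K1 late WT and 10, 11 and 15 in S6K1 KO libraries. The KO libraries overlapped late WT through 1 late WT library, and summed counts gave a ratio of 2.61 (exact 95% interval 1.43 to 4.95, counting error only). The ratio of S6K1 early to late WT was 0.159 (exact 95% interval 0.0298 to 0.549, counting error only). These groups overlapped, and 10 of the 17 late WT counts came from 1 library. *Cdh1* had 4, 4, 0 and 3 counts in S6K1/S6K2 early WT, 4, 1, 3 and 1 in S6K1/S6K2 late WT and 0, 4 and 0 in DKO libraries, all of them overlapping. *Epcam* had at most 8 counts in any library and at most 0.561 CPM. Its counts were 2, 2, 5 and 0 in S6K1 early WT, 5, 0, 0 and 3 in S6K1 late WT and 8, 0 and 1 in S6K1 KO. They were 3, 3, 6 and 1 in S6K1/S6K2 early WT, 2, 0, 1 and 1 in S6K1/S6K2 late WT and 2, 4 and 4 in DKO, where CPM did not overlap late WT (ratio of summed counts 3.87, exact 95% interval 1.12 to 16.9, counting error only). At most 3 counts were found in 14 libraries for *Cdh1* and in 16 for *Epcam*, the floor of this depth.

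In order of mean CPM, most neighbouring groups overlapped for each member. *Msln* in S6K1/S6K2 early WT lay clear of S6K1 early WT, which lay clear of DKO. *Krt7* in S6K1/S6K2 early WT lay clear of S6K1 early WT, *Krt8* in S6K1 early WT of DKO, *Krt18* in S6K1 late WT of DKO, and *Upk3b* in S6K1 KO of S6K1/S6K2 late WT. All other neighbours overlapped.

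In the passage comparison of WT libraries, the members that passed the filter on low counts numbered 7 of 9 in each set. *Krt8* and *Epcam* were left out of the S6K1 set and *Cdh1* and *Epcam* of the S6K1/S6K2 set. At an adjusted p under 0.05 by edgeR, *Msln*, *Upk3b*, *Krt7* and *Krt19* were among the 1827 of 14132 genes called in the S6K1 set, 12.9% of those tested, with 5.97% called lower. *Msln*, *Upk3b*, *Krt7* and *Krt8* were among the 1892 of 14365 genes called in the S6K1/S6K2 set, 13.2% of those tested, with 4.89% called lower. *Krt8* passed the filter there only through its early libraries, so a lower call was the only one open to it. Early and late WT groups did not overlap for 5 of the 9 members in the S6K1 set, all lower late. Of the 7 members tested there, 4 were lower without overlap, beside 9.14% of genes tested. They did not overlap for 4 members in the S6K1/S6K2 set, again all lower late, beside 10.1% of genes tested. Since these values chose the members, nothing is read from the counts. In bulk libraries, fewer cells of a type and less RNA per cell cannot be told apart.

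**Figure D3:**
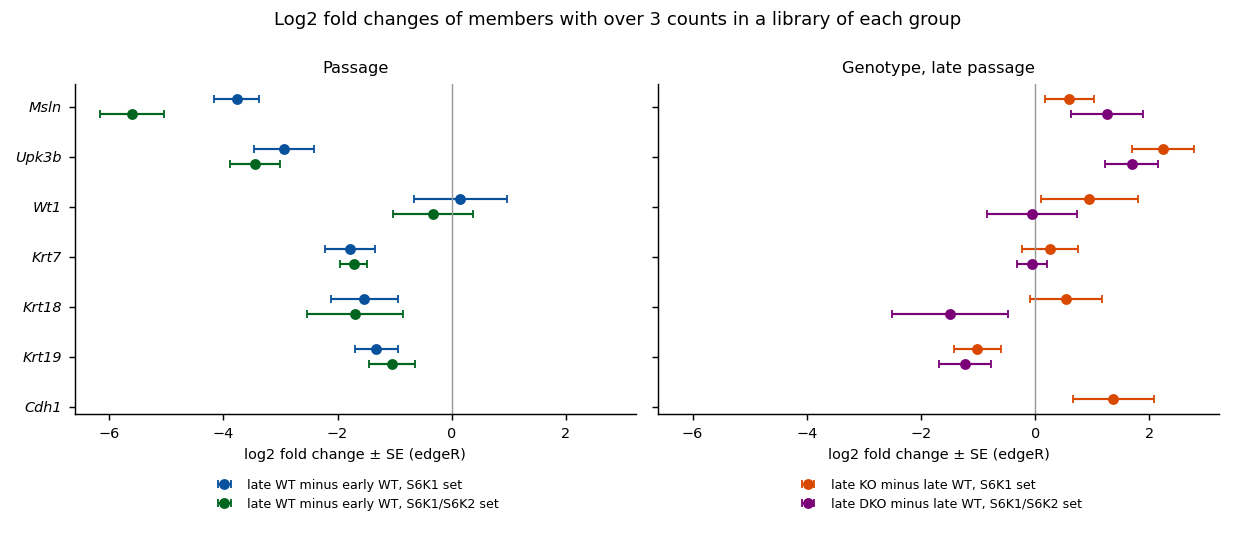
Fitted log2 fold change (edgeR, points, with bars of 1 SE) between late and early WT (left) and between knockout and late WT (right), coloured by set, for members with over 3 counts in a library of each group compared. Passage differences of *Msln* and *Upk3b* are negative in both sets, and in the knockout comparisons *Upk3b* is positive and *Krt19* negative in both.

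Transcripts that mark other cell types differed with passage as well. Of the 15 macrophage markers, 15 rose in the S6K1 set and 14 in the S6K1/S6K2 set, and *Adgre1*, the F4/80 antigen, went from 12.8 to 167 CPM in the S6K1 set (adjusted p = 1.33e-05, edgeR quasi-likelihood test). Of the 10 fibroblast markers 3 fell in each set, *Col1a1*, *Col1a2* and *Fbn1*. When 1 library was left out, the S6K1 set kept the *Col1a1* call in 2 of 8 fits (edgeR adjusted p up to 0.101), *Col1a2* in 3 of 8 and *Fbn1* in 8 of 8, and the S6K1/S6K2 set kept each in 8 of 8. For *Col1a1* the means went from 9030 to 4940 CPM in the S6K1 set (log2 fold change −0.87, SE 0.26). Per kb of exons, *Col1a1* went from 1380 to 753 CPM in the S6K1 set and from 1510 to 561 in the S6K1/S6K2 set. The part of these shifts in the levels of the members was not tested.

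In the genotype comparisons of late libraries, 0 of the 7 members tested were called in either set. By edgeR, 6 genes were called in S6K1 KO against late WT, 0.0425% of those tested, and 686 in DKO against late WT, 4.78%. At an unadjusted p under 0.05 there were 2 members in each comparison, beside 1499 and 2643 of all genes, and DESeq2 called 1 in each, *Upk3b*. These values also chose the members, so nothing is read from these counts either. Over all 9 members, *Upk3b* alone did not overlap in the S6K1 set (7.05% of genes tested were higher in KO without overlap) and *Epcam* alone in the S6K1/S6K2 set (6.37%). *Epcam* did not pass the filter, and of the 7 members tested in the S6K1/S6K2 set 0 were higher without overlap. All 3 S6K1 KO libraries and 1 of 4 late WT libraries were among those with at least 3149 Y-linked counts, and with the Y-linked level as a covariate the *Upk3b* difference was 1.41 in place of 2.24. Macrophage markers stood lower in both knockouts, with 14 of 15 called in DKO and 0 of 15 in S6K1 KO by edgeR (10 at an unadjusted p under 0.05, 3 by DESeq2). Their part in the member differences was not tested.

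Genes that mark mesothelium but are not members, chosen with earlier results of these data known, were tested in the same fits. Of 13 such genes listed, all but *Muc16* were matched in the count table. *Calb2*, *Podxl*, *Rspo1* and *Dmkn* stayed under 1 CPM in every library. Of the 12 matched, 5 passed the filter in the S6K1 set and 8 in the S6K1/S6K2 set. With passage, 2 fell and 1 rose in the S6K1 set, with a median log2 fold change of −0.09 over the 5 beside −0.04 over all genes. In the S6K1/S6K2 set 3 fell and 1 rose, with a median of −0.82 over the 8 beside 0.01 over all genes. *Lrrn4* and *Gpm6a* were tested in the S6K1/S6K2 set only, so the medians of the sets are over different genes and are not compared. Both had too few counts in the late WT libraries of that set to pass the filter through them. Between WT groups a fall was therefore the only call open to them, and both are among the 3 that fell. *Pdpn*, podoplanin, a surface mucin-type protein of mesothelium, lymphatic endothelium and many fibroblasts, fell in both sets. It was at 252, 246, 270 and 247 CPM in S6K1/S6K2 early WT and 156, 155, 157 and 116 CPM in late WT libraries (log2 fold change −0.77, SE 0.12, adjusted p = 0.00217, edgeR quasi-likelihood test). In the S6K1 set it was at 264, 192, 220 and 153 CPM early and 123, 130, 152 and 143 late, which did not overlap (log2 fold change −0.60, SE 0.18, adjusted p = 0.0431). That call held in 1 of the 8 fits that left out a library, the one without early WT replicate 4, and the adjusted p over them ran from 0.0162 to 0.119 by edgeR.

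*Nkain4*, which encodes a sodium pump-interacting protein, went the other way. It rose in both sets, from 1.37 to 5.27 CPM in the S6K1 set (log2 fold change 1.95, SE 0.25, adjusted p = 0.00039, edgeR) and from 2.35 to 10.8 CPM in the S6K1/S6K2 set (log2 fold change 2.24, SE 0.43, adjusted p = 0.00634, edgeR). Every late WT library stood above every early WT library of its set, and the call held in all 8 fits that left out a library in each set. *Lrrn4*, a leucine-rich repeat membrane protein, fell in the S6K1/S6K2 set, from 2.43, 1.22, 3.05 and 1.26 CPM to 0.181, 0.0691, 0.516 and 0 (log2 fold change −3.34, SE 0.92, adjusted p = 0.0344, edgeR). *Gpm6a*, a neuronal and mesothelial membrane glycoprotein, fell there from a mean of 1.73 to 0.19 CPM (adjusted p = 0.043, edgeR). Both rested on few counts, and between WT groups only a fall was open to them. In the S6K1 set, where neither was tested, *Lrrn4* averaged 0.704 CPM in early and 0.0423 CPM in late WT libraries, without overlap. *Gpm6a* averaged 0.586 and 0.175 CPM in these groups, which overlapped. The *Lrrn4* call held in 2 of 8 fits that left out a library (early WT replicate 4 or late WT replicate 3) and the *Gpm6a* call in 0 of 8. *Aldh1a2*, the enzyme that makes retinoic acid in mesothelium and other mesoderm, fell in the S6K1 set from 2.65 to 0.893 CPM (log2 fold change −1.57, SE 0.47, adjusted p = 0.0471, edgeR), a call that held in 2 of 8 such fits (without early or late WT replicate 4).

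In the genotype comparisons no mesothelial companion passed edgeR's threshold. In S6K1 KO against late WT, 4 of the 5 had an unadjusted p under 0.05, beside 1499 of 14132 genes, and DESeq2 called 0. The median log2 difference was 0.70 beside −0.01 over all genes. With the Y-linked level as a covariate, edgeR called 0 as well. *Aldh1a2* was at 2.74, 1.84 and 3.86 CPM in KO and 0.627, 0.4, 1.19 and 1.36 CPM in late WT libraries, without overlap. *Upk1b*, the uroplakin of a further family that pairs with UPK3 proteins, was at 6.45, 5.84 and 13.2 CPM in KO and 6.82, 1.6, 3.27 and 2.21 CPM in late WT. In DKO against late WT, 1 of the 8 had an unadjusted p under 0.05, beside 2643 of 14365 genes. The median was 0.46 beside −0.01 over all genes. DESeq2 called 1, *Pdpn*, at 202, 224 and 186 CPM in DKO, all above late WT (log2 difference 0.47, SE 0.13, edgeR adjusted p = 0.0583). The difference between the sets in the passage or genotype effect was called for 0 of the companions by edgeR and by DESeq2, with 1 and 3 of 23 at an unadjusted p under 0.05. Over all genes edgeR called 0.712% for the passage and 0.00672% for the genotype difference.

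**Figure D4:**
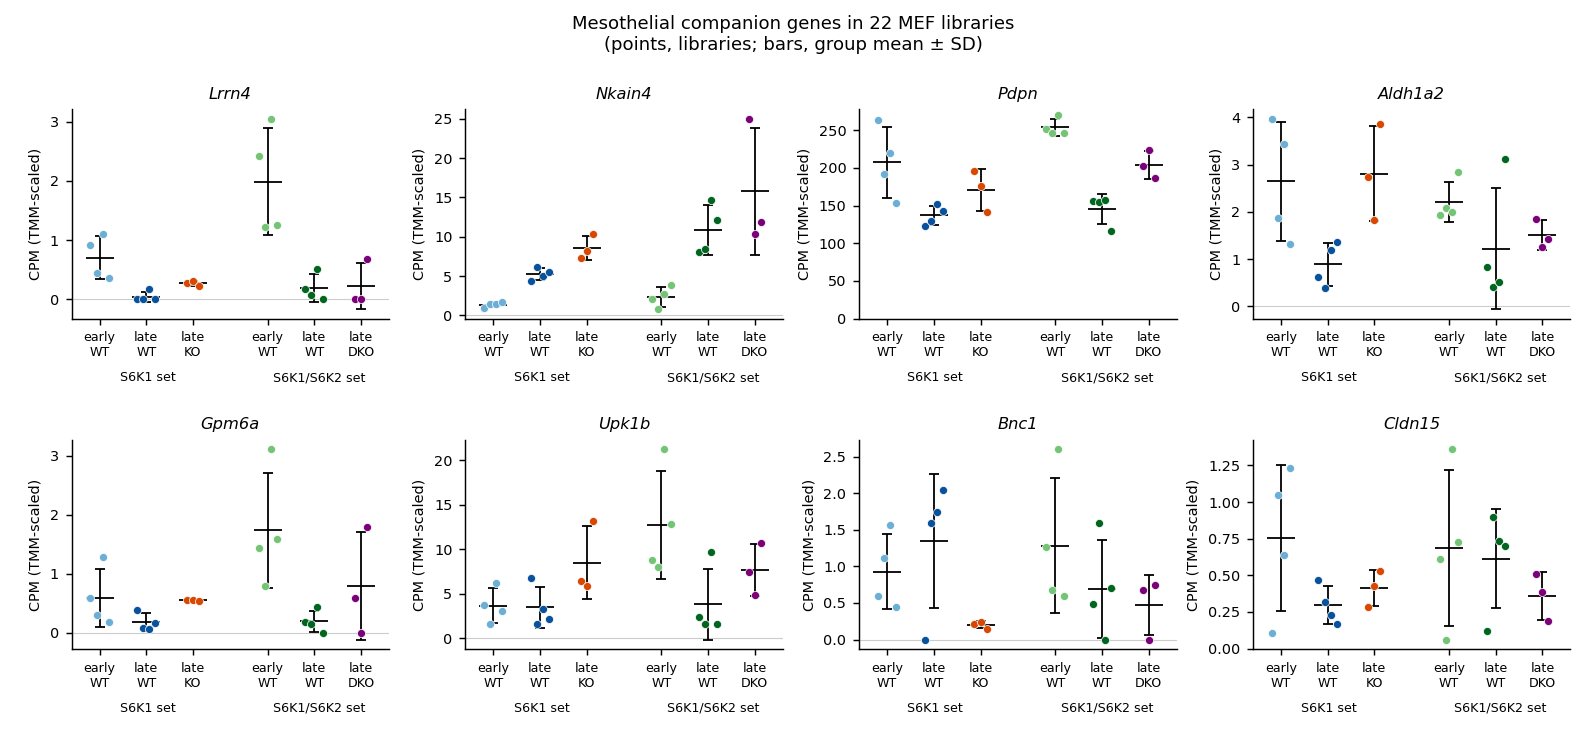
CPM of 8 mesothelial companion genes (linear axes that differ between panels) in each of the 22 libraries (points), by group, with horizontal lines at the group means and bars of 1 SD. *Pdpn* is lower and *Nkain4* higher in late than in early WT libraries of both sets.

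The epithelial companions, 47 junction, protease, regulator and keratin genes, stood mostly at low levels. Of these, 30 stayed under 1 CPM in every library, among them the epithelial regulators *Grhl2*, *Grhl3*, *Ovol1*, *Ovol2*, *Esrp1*, *Elf3* and *Ehf*, the junction genes *Ocln*, *Cldn6* and *Cldn7*, and the basal keratins *Krt5* and *Krt14*. At most 3 counts in any library were found for 16 of them. The highest level of the 47 in any library was 154 CPM. In the S6K1 set 12 were tested and with passage 2 rose and 1 fell, with a median log2 fold change of 0.14. For the S6K1/S6K2 set 13 were tested and 3 rose, with a median of 0.34. *St14*, the membrane protease matriptase, rose in both. It went from 0.773, 0.551, 1.36 and 2.38 CPM to 4.77, 6.08, 6.04 and 4.54 CPM in the S6K1/S6K2 set (log2 fold change 2.11, SE 0.43, adjusted p = 0.00848, edgeR) and from a mean of 1.14 to 2.82 CPM in the S6K1 set (adjusted p = 0.0362, edgeR). *Cldn1*, a tight junction claudin, rose in the S6K1 set from a mean of 4.46 to 23.6 CPM (log2 fold change 2.40, SE 0.63, adjusted p = 0.0259, edgeR). *Klf5*, a transcription factor of proliferating epithelia, fell there from 14.5 to 6.31 CPM (log2 fold change −1.20, SE 0.33, adjusted p = 0.0334, edgeR).

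*Dsp*, the desmosome protein desmoplakin, and *Tjp3*, a tight junction scaffold, rose in the S6K1/S6K2 set from means of 0.857 to 2.62 CPM and 0.196 to 0.887 CPM (adjusted p = 0.0356 and 0.0439, edgeR). *Tjp3* was the epithelial companion called in DKO, at 0.0844, 0.194 and 0 CPM beside 0.422, 1.38, 1.1 and 0.639 in late WT libraries (adjusted p = 0.0444, edgeR), and it rested on few counts. It passed the filter only through late WT libraries. A rise with passage and a fall in DKO were thus the only calls open to it. In S6K1 KO 0 of 12 were called by edgeR and 0 by DESeq2, with 2 at an unadjusted p under 0.05, beside 1499 of 14132 genes. Leaving out 1 library at a time, the *St14* call held in 8 of 8 fits in the S6K1/S6K2 set and 3 of 8 in the S6K1 set, the *Cldn1* call in 3 of 8 (lost among others without late WT replicate 3, which held 41.4 CPM), and the *Klf5* and *Dsp* calls in 2 of 8 each. Of the fits in which *Tjp3* could be tested, its passage call held in 1 of 5 and its DKO call in 1 of 4, in both cases without late WT replicate 1. Of the epithelial companions called with passage, *Cldn1* (S6K1 set), *Dsp* and *Tjp3* (S6K1/S6K2 set) and *St14* (both) were higher late, the only direction open to *Tjp3*. *Klf5* (S6K1 set) was lower.

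Mesenchymal genes and genes of the epithelial-mesenchymal transition were all read, and 11 of 11 were tested. With passage 3 fell in the S6K1 set, *Zeb1*, *Twist1* and *Prrx1*, transcription factors of mesenchymal cells. *Zeb1*, a repressor that binds the E-box searched above, went from 97.6 to 48.7 CPM (log2 fold change −1.01, SE 0.24, adjusted p = 0.0177, edgeR). When 1 library was left out, these calls held in 6 of 8 fits for *Zeb1*, 5 of 8 for *Twist1* and 4 of 8 for *Prrx1*. In the S6K1/S6K2 set 1 rose, the related repressor *Zeb2*, from 32.9 to 59.4 CPM (log2 fold change 0.88, SE 0.15, adjusted p = 0.00355, edgeR). None passed the threshold in S6K1 KO (0 by edgeR, 4 at an unadjusted p under 0.05, 1 by DESeq2) or in DKO (0 by edgeR, 2 at an unadjusted p under 0.05, 0 by DESeq2). Over all genes, 1499 of 14132 and 2643 of 14365 had an unadjusted p under 0.05 in these comparisons.

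Members were then compared pair by pair within groups, to see whether libraries of 1 group high in a member were high in another. For the 8 members that passed the filter over all 22 libraries, log2 CPM was taken as a deviation from the group mean. Of the 28 pairs, 18 had a positive Pearson r, which ran from −0.34 to 0.52 with a median of 0.13. By permutation within groups 0 passed a Benjamini-Hochberg adjusted p of 0.05, and 1 had an unadjusted p under 0.05 by Pearson's r and 1 by Spearman's rho. This pair was *Wt1* and *Krt18* (r = 0.52, permutation p = 0.0109, adjusted p = 0.305, rho = 0.58, adjusted p = 0.271). Its r was 0.53 without the 2 libraries farthest from the median, 0.65 within the S6K1 set and 0.42 within the S6K1/S6K2 set. *Msln* and *Upk3b* had r = 0.49 (adjusted p = 0.485 by permutation), 0.65 within the S6K1 set and 0.39 within the S6K1/S6K2 set. *Krt8* and *Krt18*, chains of 1 keratin pair, had r = 0.40. Without removal of the group means, *Msln* and *Upk3b* had r = 0.85 over the 22 libraries, which is mostly the passage difference already described.

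**Figure D5:**
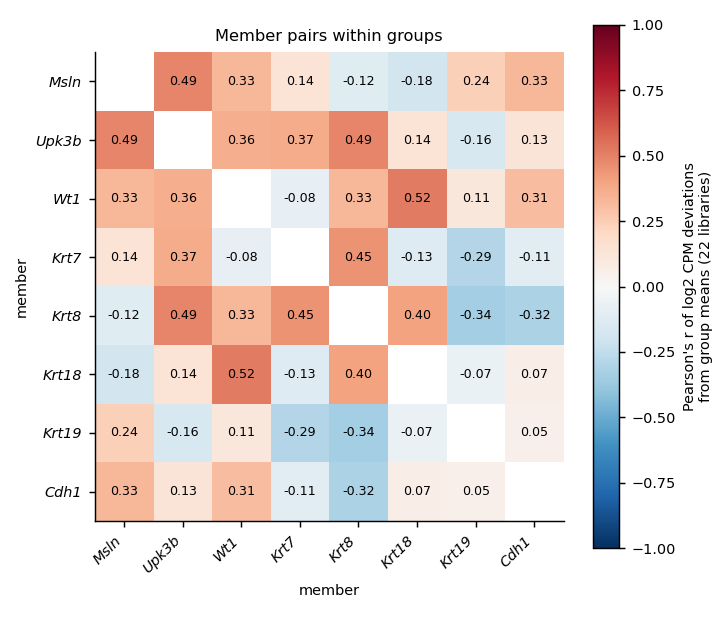
Pearson r of each pair of members over the deviations of 22 libraries from their group means (log2 CPM). The 28 pairs run from −0.34 to 0.52.

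Over all 22 libraries, with group differences kept, the genes most like 7 of the members in log2 CPM are given as a description. For *Msln* they were *Frs2*, *Tram2* and *Gpc1* (r = 0.91, 0.90 and 0.90), and for *Upk3b* they were *Lrrn4* (0.88), *Msln* (0.85) and *Pdpn* (0.84). For *Krt7* they were *Slc9a5*, *Lpcat3* and *Cenpt* (0.92, 0.91 and 0.89) and for *Krt8* *Dpp4*, *Upk3b* and *4930583H14Rik* (0.84 each). For *Krt18* they were *Naa25*, *Ttc19* and *Bin1* (0.83, 0.82 and 0.78) and for *Krt19* *Slc7a11*, *Mir17hg* and *Ermp1* (0.85, 0.84 and 0.83). *Wt1*, read at low counts, had a highest r of 0.68, with *Gm1840*. Both *Lrrn4* and *Pdpn*, near *Upk3b*, belong to the mesothelial companions. These libraries share their passage and genotype groups, so the points are not independent.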

How the data were processed

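The deposited table held raw counts per Ensembl gene for 22 libraries, made by the authors from stranded mRNA libraries read as single ends on an Illumina HiSeq 2500. The submitters' processing notes name CASAVA, STAR 2.7.1a, DESeq2 1.28.1 and mm10, whereas the study's methods name TopHat, mm9 and the HTSeq counts module, and 22812 of the 55401 identifiers have no entry in the mm9 annotation at hand, GENCODE vM1. Gene coordinates are therefore those of RefSeq on GRCm38.p6, with strands from GENCODE vM1. Symbols were matched by Ensembl identifier, and RefSeq synonyms served only for list genes without a direct match. Lengths are those of all exons of a gene merged, from GENCODE vM1, and can exceed the length of 1 transcript. Symbols were matched to 32589 identifiers, which carry 96.98% of the counts. No column of the table was left unused (0).

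The groups came from the labels. Counts were fitted in R 4.3.3 with edgeR 4.0.16 (limma 3.58.1), with filterByExpr, TMM factors and the robust quasi-likelihood test, on the 3 groups of each set, and Benjamini-Hochberg adjustment ran over all genes tested with a threshold of 0.05. Differences between the sets were tested on all 22 libraries. The scripts were tested on simulated data. Low counts were compared by summed counts with exact conditional intervals at 95% confidence, and intervals and floors cover counting error only. Member pairs were permuted within groups (100000 resamples, two-sided, log2 CPM with a prior count of 2). Alternatives were DESeq2 1.42.0, RLE factors, library totals, no filter, other groupings of the fit, the Y-linked level as a covariate and leaving out each library.

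The members, the companion and marker lists (mesothelial, epithelial, mesenchymal, fibroblast, macrophage, urogenital, endothelial, skeletal muscle, neural crest and Y-linked) and the tests were chosen with earlier results of these data known. Named genes were the members and, in each comparison and list, up to 3 genes past the threshold with the smallest p, plus for each member the 3 genes most like it (those of *Cdh1* are not reported here). *Gpm6a*, *Upk1b* and the knockout values of *Aldh1a2* and *Pdpn* were named after their values were seen, and so were genes named only as under 1 CPM. Counts of all 30 pairs of libraries within groups differed by more than sampling noise, so no library was taken as a repeat.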

Additional observations from a re-analysis of the deposited data

Results flagged for a closer look

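Within groups of 4 libraries, the members and the companion or marker genes that the text names were searched for a library set apart from the other 3 by Dixon's ratio. Of 138 groups, 6 were singled out (4.35%, where chance gives about 1 in 20), and 0 of them belonged to a member. *Pdpn* was lowest in S6K1/S6K2 late WT replicate 4, at 116 CPM beside 155 to 157 in the others. *Aldh1a2* was highest in replicate 4 of both S6K1/S6K2 early WT (2.85 CPM, others at most 2.08) and S6K1/S6K2 late WT (3.13 CPM, others at most 0.845). *Prrx1* was highest in S6K1 early WT replicate 2 (605 CPM, others 482 to 490), *Egfl7* in S6K1 late WT replicate 2 (9.67 CPM, others 6.45 to 6.9) and *Mrc1* in S6K1 late WT replicate 3 (131 CPM, others 60.5 to 71).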

How the results depend on the processing

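No paired analysis was possible because the labels give no replicate numbers shared between groups. Counts of genes called moved by over 1.5 times as follows, and the cause was not tested. Passage in the S6K1 set went from 1827 to 3265 with the Y-linked covariate (1223 to 1749 without 1 library). S6K1 KO went from 6 to 266 by DESeq2, 43 without the filter, 16 with all 6 groups in the fit and 38 with the Y-linked covariate (2 to 9 without 1 library). Passage in the S6K1/S6K2 set went from 1892 to 2845 by DESeq2 (885 to 2247 without 1 library, lowest without early WT replicate 1), and DKO from 686 to 1206 by DESeq2 (97 to 783, lowest without DKO replicate 2). Mesothelial companions called with passage went from 3 to 1 with only the compared groups in the S6K1 set (1 to 3 without 1 library) and from 4 to 2 with the Y-linked covariate in the S6K1/S6K2 set (2 to 4). In DKO they went from 0 to 1 by DESeq2 and with that covariate (0 to 1). Epithelial companions called with passage went from 3 to 5 with all 6 groups in the S6K1 set (0 to 3) and from 3 to 1 with only the compared groups in the S6K1/S6K2 set (1 to 3). In DKO they went from 1 to 0 without the filter or with only the compared groups (0 to 1). The set difference in passage went from 0 to 1 companions with the covariate. No called difference changed sign. Uncalled member differences near 0 did, in the S6K1 set *Wt1* with passage (0.15 to −0.72 without late WT replicate 1), *Krt18* in KO (0.54 to −0.21 without KO replicate 3) and *Krt7* in KO, and in DKO *Wt1* (−0.06 to 0.98 without late WT replicate 3) and *Krt7* (−0.06 to 0.06 without DKO replicate 2). Of 364 alternative member differences, 6 moved by more than the replicate spread. These were *Upk3b* and *Krt7* in S6K1 KO with the covariate (1.41 and −0.47), *Wt1* in the S6K1/S6K2 set without late WT replicate 3 (−1.38) and without DKO replicate 1 (−1.29), and *Krt8* in that set without late WT replicate 4 (fitted passage −6.87 and DKO 4.01). Of the companion differences, 400 kept their side of the threshold and 105 were weaker. Depth limits *Krt8*, *Cdh1* and *Epcam*, at 3 counts or fewer in 14, 14 and 16 of the 22 libraries.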

Other observations

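Genes of other cell types that an embryo without head and viscera could hold were read beside the members. Of 10 genes of urogenital tissues that express *Wt1*, 4 were tested, and *Lhx9*, a transcription factor of the gonad and limb, fell with passage in the S6K1 set from 54.4 to 14.9 CPM (log2 fold change −1.88, SE 0.32, adjusted p = 0.00236, edgeR). None of the 4 passed in the S6K1/S6K2 set (0 by edgeR, 1 at an unadjusted p under 0.05, 0 by DESeq2). Of 8 endothelial markers 4 were tested, and *Egfl7*, a secreted protein of endothelium, fell in both sets, from 17.5 to 7.39 CPM in the S6K1 set (adjusted p = 0.0032, edgeR) and from 17.6 to 7.66 CPM in the S6K1/S6K2 set (adjusted p = 0.00527, edgeR). *Kdr*, the VEGF receptor of endothelium, fell in the S6K1 set from 4.81 to 1.95 CPM (adjusted p = 0.0446, edgeR), a call that held in 1 of 8 fits that left out a library, the one without early WT replicate 2. Of 6 skeletal muscle markers 2 were tested and 0 called with passage by edgeR in either set, with 2 at an unadjusted p under 0.05 and 2 by DESeq2 in the S6K1 set and 0 by both in the S6K1/S6K2 set. Of 5 neural crest and glial markers 1 was tested, with 0 called by edgeR, 1 at an unadjusted p under 0.05 and 1 by DESeq2 in the S6K1 set, and 0 by each in the S6K1/S6K2 set. The 4 Y-linked genes had 0 calls in every comparison, by edgeR, at an unadjusted p under 0.05 and by DESeq2. In the knockout comparisons none of the urogenital, endothelial, muscle or neural crest genes tested passed by edgeR or DESeq2, with 1 endothelial gene at an unadjusted p under 0.05 in DKO and 0 elsewhere. In the fibroblast list *Pdgfrb*, the PDGF receptor of mesenchymal cells, was 268 CPM in DKO and 182 in late WT (log2 difference 0.55, SE 0.14, adjusted p = 0.044, edgeR). That call held in 1 of 7 fits that left out a library, the one without late WT replicate 1. In this list S6K1 KO had 0 calls by edgeR, 1 at an unadjusted p under 0.05 and 1 by DESeq2. Over all genes, an unadjusted p under 0.05 was found with passage for 3896 of 14132 in the S6K1 set and 4457 of 14365 in the S6K1/S6K2 set. It was found for 1499 and 2643 of these genes in S6K1 KO and DKO.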
